A study of Mus musculus with 8 samples.

Results

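The genes described here are the cell cycle and proliferation genes of the gravid mouse uterus at gestational d18.0, a set of 34 genes chosen by name. It holds the replication licensing genes Mcm2 to Mcm7, Pcna, Tyms and the ribonucleotide reductase genes, the cyclins and Cdk1, and the kinases, spindle proteins and chromatin proteins of mitosis. A gene was measured where the array annotation gave a probe set its symbol alone, and its value was that of its brightest probe set. With that rule 33 of the 34 genes were measured, by 65 of the 28000 probe sets, among 13119 genes in all. Ccnb1 had no probe set under this annotation.

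Whole uterine RNA of 4 Cox-1 KO and 4 wild-type pregnant females was hybridised to Affymetrix 430 2.0 arrays, 1 array for each mouse. Cox-1 KO mice lack cyclooxygenase-1, an enzyme of prostaglandin synthesis, and deliver their pups late. They were on a mixed C57BL/6 x Sv129 background (written with 129P2 in the methods), whereas the wild-type mice were C57BL/6, so the deleted gene and the strain background cannot be told apart. All females were given as 6 to 16 weeks old in the labels. Fetuses, fetal membranes and placentas had been taken out and pieces of each uterus had been kept for sections before RNA was isolated.

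Cells enter the cycle when D-type cyclins release the E2F factors, which switch on the genes for DNA replication. The genes for mitosis follow in G2, after the repressive DREAM complex has left their promoters and B-MYB and FOXM1 have taken over. Cyclin B with Cdk1 then drives chromosome condensation and the spindle. In the pregnant uterus, division of myometrial smooth muscle cells belongs mainly to early gestation and growth in cell size to later gestation, while decidual, vascular and immune cells may go on dividing. Messenger RNA of these genes in whole tissue is read as a measure of how many cells are in cycle, but in bulk RNA fewer dividing cells and less RNA per cell cannot be told apart.

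The genes of mitosis are known for promoters in which a CCAAT box, bound by NF-Y, stands near a CHR element, the letters through which DREAM binds, and the replication genes for E2F sites. Promoter sequence from RefSeq (assembly GRCm38.p6) was used for 28 of the 34 genes, as windows of 250 bases before and 50 after the start of transcription. Ccna2, Ccnd1, Aurkb, Mcm4, Tpx2 and Kif20a had no window in this search. Windows on 1 chromosome had been left out for the 34 genes, though not for the 27025 genes of the background. Both strands were searched for CCAAT, for the CHR letters TTTGAA and for the E2F letters TTTCCCGC and TTTGGCGC. CCAAT was found in 25 of 28 genes (89.3%, against 41.1% of all 27025 genes in the table), TTTGAA in 15 (53.6%, against 20.2%) and an E2F match in 4, the genes Mcm3, Mcm5, Mcm6 and Mcm7 (14.3%, against 1.8%). Both CCAAT and TTTGAA occurred in 15 of the 28, against 8.97% of all genes. Birc5, Nusap1 and Tyms held none of the letters searched. A CCAAT and a TTTGAA match shared bases in 1 window. Such matches describe the letters and are not evidence of a bound site.

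The 5 promoters that follow are examples of how the letters lie. They are of 4 genes of mitosis, Ccnb2, Cdk1, Cdc20 and Ube2c, and of the replication gene Mcm6. On the brightest probe sets, Cox-1 KO replicate 4 was the highest Cox-1 KO array for the 4, but not for Mcm6. It was so too for Mcm5 and Mcm7, which have E2F letters and no TTTGAA. It was not so for Mcm2 and Aurka, which have CCAAT and TTTGAA. These contrasts depended on the probe set. On the other probe sets of Mcm6 and Mcm2 that array was the highest Cox-1 KO array, at 1077 and 1075. On another probe set of Mcm7 Cox-1 KO replicate 3 was higher, at 1478 against 699 on replicate 4. A relation of the letters to the arrays was not tested. Each printed promoter runs 5′ to 3′ on the strand of the gene, over 200 bases before the start and 30 from the start on. Matches to the letters on either strand are in capitals. Ccnb2 lies at chr9:70421525-70421754, minus strand, Cdk1 at chr10:69352883-69353112, minus strand, Cdc20 at chr4:118437314-118437543, minus strand, Ube2c at chr2:164769729-164769958, plus strand, and Mcm6 at chr1:128359676-128359905, minus strand.
Ccnb2: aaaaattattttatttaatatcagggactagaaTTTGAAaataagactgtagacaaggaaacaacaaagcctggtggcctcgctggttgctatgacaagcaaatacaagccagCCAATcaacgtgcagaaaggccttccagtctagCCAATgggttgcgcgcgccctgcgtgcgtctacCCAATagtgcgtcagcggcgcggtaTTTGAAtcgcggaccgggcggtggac
Cdk1: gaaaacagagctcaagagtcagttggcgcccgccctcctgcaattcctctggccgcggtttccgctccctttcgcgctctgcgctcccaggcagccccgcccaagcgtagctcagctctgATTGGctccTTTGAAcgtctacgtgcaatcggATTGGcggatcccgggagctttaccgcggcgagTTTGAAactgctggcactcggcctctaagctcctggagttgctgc
Cdc20: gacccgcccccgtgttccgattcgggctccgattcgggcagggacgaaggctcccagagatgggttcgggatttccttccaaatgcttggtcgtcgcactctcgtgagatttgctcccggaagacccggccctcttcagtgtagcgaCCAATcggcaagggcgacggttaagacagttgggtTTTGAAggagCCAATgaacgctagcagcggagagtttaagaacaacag
Ube2c: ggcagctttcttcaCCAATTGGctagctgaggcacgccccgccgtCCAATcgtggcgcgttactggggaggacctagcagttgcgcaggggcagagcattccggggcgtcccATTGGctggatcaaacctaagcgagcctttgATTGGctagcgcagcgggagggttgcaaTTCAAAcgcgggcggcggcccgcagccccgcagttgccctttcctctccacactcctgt
Mcm6: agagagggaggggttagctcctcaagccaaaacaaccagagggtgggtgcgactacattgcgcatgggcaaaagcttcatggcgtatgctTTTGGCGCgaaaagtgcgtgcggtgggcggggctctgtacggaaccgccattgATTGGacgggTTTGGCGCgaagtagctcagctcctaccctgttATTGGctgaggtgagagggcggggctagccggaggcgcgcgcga
In Ccnb2 the CCAAT letters came 3 times, beginning 87, 54 and 21 bases before the start, and in Cdk1 and Ube2c several copies lay on the opposite strand as ATTGG. Mcm6 carried TTTGGCGC at 110 and at 47 bases before the start and no TTTGAA.

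Signal strengths on the linear MAS5 scale, in which the authors scaled each array to a target of 1000, are given for single arrays. Array medians lay between 731 and 757, and from 92.4% to 94.0% of the probe sets reached a signal of 100. The smooth muscle markers that define the myometrium were bright on all 8 arrays, with Acta2 at 66361 to 72540 in Cox-1 KO and 59991 to 70074 in wild-type uteri. Apoa1 and other transcripts of yolk sac and fetal liver were high on 4 arrays, with Apoa1 at 69038, 796, 58425 and 51184 in Cox-1 KO and 342, 615, 842 and 50275 in wild-type uteri. The counts over the 33 genes were therefore also taken with Apoa1-high arrays (10000 or more) as a term.

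At a Benjamini-Hochberg adjusted p under 0.05 in limma, 0 of the 33 genes differed between Cox-1 KO and wild-type uteri, where 0.0079% of the 12662 genes tested did (1 gene). The lowest adjusted p was 0.421. At an unadjusted p under 0.05, 3 genes were lower in Cox-1 KO uteri, against 4.37% of all genes, and 0 were higher, against 4.84%. The 3 were Ccnd1, Ccnb2 and Bub1b. The methods' t-test, with an unadjusted p up to 0.05 and at least a 1.5-fold ratio, called 0 of the 33 genes, where it called 0.261% of all genes lower and 0.419% higher. For 25 genes the 95% interval of the difference lay inside a 1.5-fold change in either direction, and for 32 inside a 2-fold change. The exception was Tyms.

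The log2 difference, Cox-1 KO minus wild-type, was below 0 for 25 of the 33 genes, where 52.7% of all genes lay below 0. Its median over the 33 genes was -0.14, beside -0.01 over all genes. With Apoa1-high as a term 28 genes lay below 0, where 49.1% of all genes did, and the median was -0.15. In that fit 2 genes, Ccnd1 and Bub1b, were lower at an unadjusted p under 0.05 on their brightest probe sets (background 2.61%). The values of members that are transcribed together in the same cells are not independent, and no test was made over the set.

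**Figure D1:**
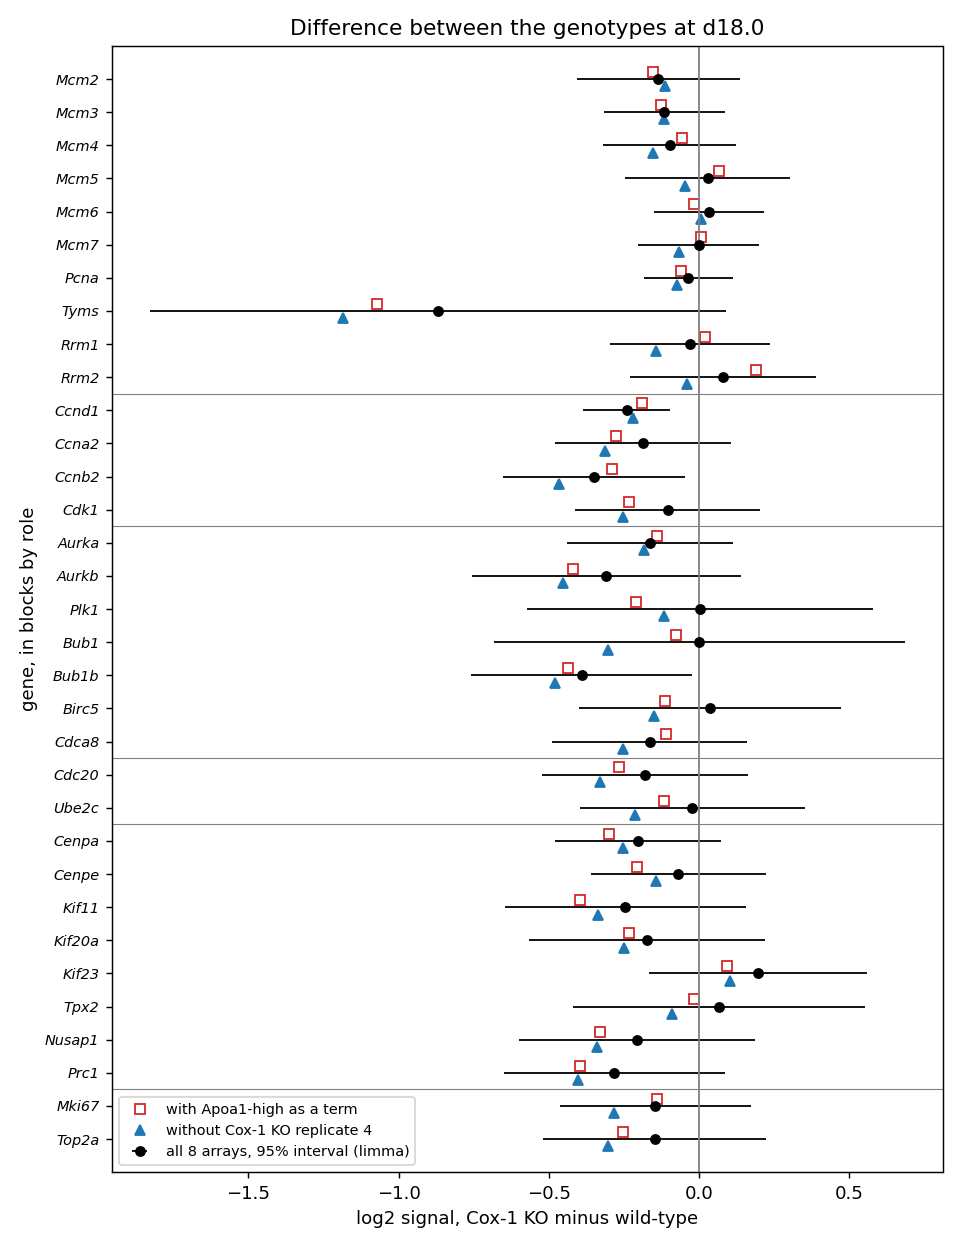
Difference in log2 signal between Cox-1 KO and wild-type uteri (x axis) for each of the 33 genes (y axis, blocks by role), as the limma estimate with its 95% interval (black), the estimate with Apoa1-high as a term (red squares) and the estimate without Cox-1 KO replicate 4 (blue triangles). Of the black points, 25 lie below 0, and 31 of the triangles do.

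Among the cyclins and Cdk1, all 4 measured genes lay below 0, with a median of -0.21, and 2 of them passed an unadjusted p of 0.05. Ccnd1, which encodes cyclin D1 and links growth signals to entry into S phase, had signals of 5275, 5290, 4515 and 4722 in Cox-1 KO uteri, against 6017, 5845, 5828 and 5646 in wild-type uteri on the brightest of its probe sets. The highest Cox-1 KO signal was below the lowest wild-type signal. Ccnd1 was the only gene of the 33 whose groups did not overlap in the lower direction, where 2.5% of all genes did not, and 0 did not overlap in the higher direction (1.83%). Its mean was 4951 ± 393 in Cox-1 KO and 5834 ± 152 in wild-type uteri (SD, n = 4 each), a log2 difference of -0.24 with a 95% interval of -0.38 to -0.10 (limma, unadjusted p = 0.00386, adjusted p = 0.421). The exact two-sided permutation test gave p = 0.0286, the smallest that 4 against 4 arrays allow. Its probe sets gave log2 differences of -0.32 to -0.21. The separation did not hold on all of them. On the probe set at -0.32 the groups overlapped, with 3228 to 4312 in Cox-1 KO and 4008 to 5232 in wild-type uteri. With Apoa1-high as a term the difference on the brightest probe set was -0.19 (unadjusted p = 0.0235, adjusted p = 0.793 in limma). On the other probe sets it was -0.18 and -0.22 with that term (limma, unadjusted p = 0.088 and 0.0522). Neither passed 0.05 then, although both did without the term (limma, unadjusted p = 0.0141 and 0.0262). Without the Apoa1-high arrays, which left 1 Cox-1 KO and 3 wild-type arrays, the difference on the brightest probe set was -0.16. The spread in that fit comes from the wild-type arrays alone, so it is given as a value with no test.

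Ccnb2, the gene of cyclin B2, a partner of Cdk1 at entry into mitosis, had signals of 574, 645, 543 and 807 in Cox-1 KO uteri, against 925, 837, 764 and 724 in wild-type uteri. The groups overlapped through Cox-1 KO replicate 4, which lay above 2 wild-type arrays. The log2 difference was -0.35 with an interval of -0.65 to -0.05 (limma, unadjusted p = 0.0276, adjusted p = 0.538), and -0.29 with Apoa1-high as a term. Ccna2, which encodes cyclin A2 of S phase and G2, stood at 714 to 1090 in Cox-1 KO and at 858 to 1050 in wild-type uteri. For Ccna2, replicate 4 of the Cox-1 KO uteri was the highest array of all 8 and the other Cox-1 KO arrays were the 3 lowest. Cdk1, the kinase that drives mitosis, had the same form, with 963, 908, 989 and 1436 in Cox-1 KO and 1098, 1126, 1047 and 1279 in wild-type uteri. The log2 differences of Ccna2 and Cdk1 were -0.19 and -0.10, with intervals that included 0.

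**Figure D2:**
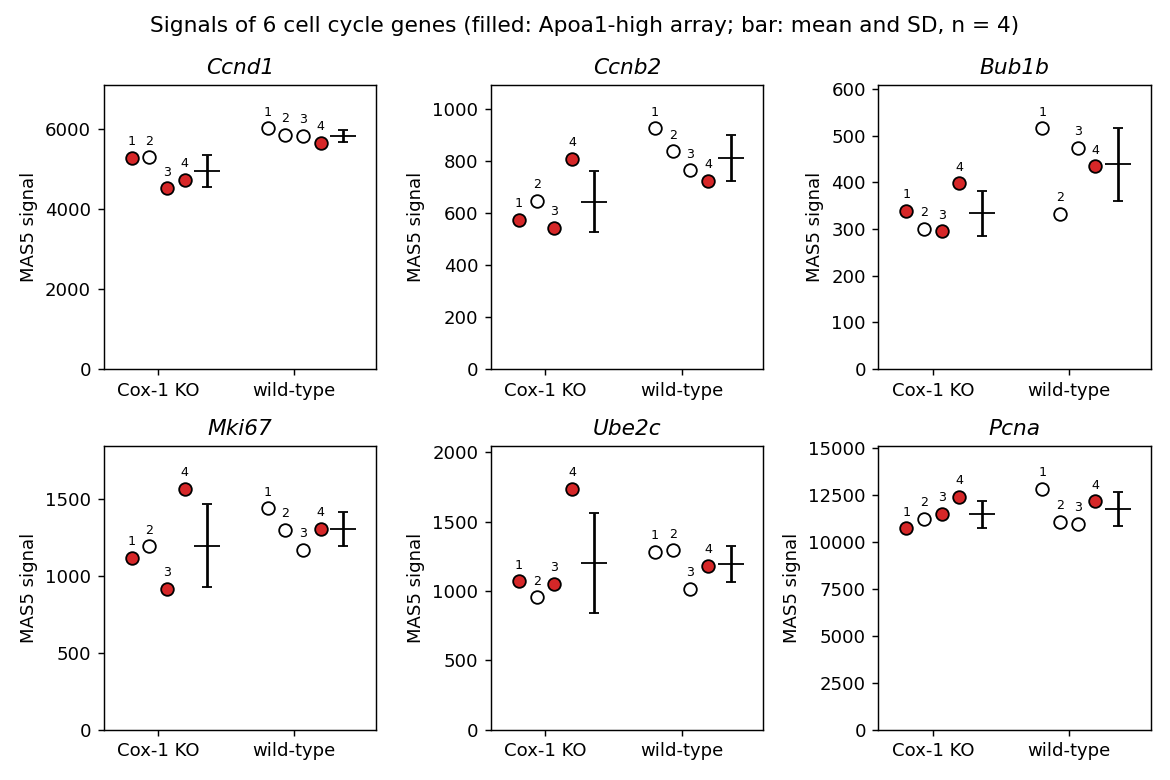
MAS5 signal (y axis, linear, from 0) of 6 genes on each Cox-1 KO and wild-type array, with the replicate number above each point, red points for Apoa1-high arrays, and bars for the mean and SD of 4 arrays. Ccnd1 is separate between the groups on its brightest probe set, whereas in Ccnb2, Bub1b, Mki67 and Ube2c replicate 4 is the highest Cox-1 KO array.

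The genes of DNA replication and nucleotide supply lay closest to 0, with 7 of 10 below 0, a median of -0.03 and 0 past an unadjusted p of 0.05. Pcna, the sliding clamp of the replication fork, had 10705, 11224, 11480 and 12390 in Cox-1 KO and 12805, 11067, 10937 and 12150 in wild-type uteri. The groups overlapped over most of their range, and the log2 difference was -0.03 with a 95% interval of -0.18 to 0.11. The 6 licensing helicase genes Mcm2 to Mcm7 had log2 differences of -0.14 to 0.03, and all 6 intervals included 0. On its brightest probe set Mcm2 was high on another array than most genes, with 1557, 1140, 1000 and 1136 in Cox-1 KO against 1352, 1318, 1270 and 1297 in wild-type uteri. On its other probe set Cox-1 KO replicate 4 was the highest Cox-1 KO array, at 1075.

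Rrm2, the regulated subunit of ribonucleotide reductase, had 9954, 14913, 12175 and 17069 in Cox-1 KO and 13811, 12039, 13172 and 11258 in wild-type uteri. Its Cox-1 KO arrays held both the lowest and the 2 highest signals, and the log2 difference was 0.08 with an interval of -0.23 to 0.39. Rrm1, the large subunit, differed by -0.03. Tyms, the thymidylate synthase gene, had the largest fall in value, with signals of 45, 46, 64 and 122 in Cox-1 KO and 164, 63, 136 and 128 in wild-type uteri. These signals lie around the filter of 100, the groups overlapped, and the log2 difference of -0.87 had an interval of -1.83 to 0.09 (limma, unadjusted p = 0.0714, adjusted p = 0.591).

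Of the 7 genes for mitotic kinases, the spindle checkpoint and the chromosomal passenger complex, 4 lay below 0, with a median of -0.16. Bub1b, which encodes the checkpoint protein BubR1, had 339, 301, 295 and 398 in Cox-1 KO uteri, against 516, 333, 474 and 434 in wild-type uteri. The groups overlapped through wild-type replicate 2 and Cox-1 KO replicates 1 and 4. The log2 difference was -0.39 with an interval of -0.76 to -0.02 (limma, unadjusted p = 0.0394, adjusted p = 0.555), and both of its probe sets were lower, at -0.39 and -0.45.

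Bub1, the kinase of the same checkpoint, showed the widest spread among Cox-1 KO arrays of all 33 genes, a ratio of highest to lowest of 3.07. Its signals were 262, 237, 163 and 501 in Cox-1 KO and 350, 194, 267 and 279 in wild-type uteri, and the log2 difference was 0.00 with an interval of -0.68 to 0.69. Plk1, a kinase of mitotic entry and exit, varied most among wild-type arrays after Tyms, with 397, 263, 340 and 456 in Cox-1 KO against 378, 498, 209 and 409 in wild-type uteri. The interval of Plk1 was -0.57 to 0.58. No change was detected in either kinase, and differences inside its interval could not be told from 0 at this spread. Cdca8, the borealin gene of the passenger complex, had 462, 656, 521 and 689 in Cox-1 KO and 746, 577, 606 and 657 in wild-type uteri, with overlapping groups and a log2 difference of -0.16. The other passenger genes, Aurkb and Birc5, differed by -0.31 and 0.04, and Aurka, the centrosome kinase, by -0.16. The probe sets of Aurkb and of Cdca8 disagreed in sign, from -0.31 to 0.14 and from -0.34 to 0.16.

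Ube2c, the ubiquitin-conjugating enzyme of the anaphase-promoting complex, had 1070, 954, 1054 and 1736 in Cox-1 KO uteri, against 1282, 1294, 1017 and 1180 in wild-type uteri. Cox-1 KO replicate 4 lay above all other arrays, and the other 3 Cox-1 KO arrays were within or below the wild-type range. The log2 difference was -0.02 with an interval of -0.40 to 0.35. Cdc20, the activator of the same complex, had 942, 877, 960 and 1407 in Cox-1 KO and 1404, 981, 1120 and 1191 in wild-type uteri, a log2 difference of -0.18. Its 2 probe sets gave the same difference to 2 decimals.

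Among the 8 genes of the spindle, kinesins and centromere 6 lay below 0, with a median of -0.19 and 0 past an unadjusted p of 0.05. Cenpa, the centromeric histone, had 913, 742, 836 and 949 in Cox-1 KO and 1169, 818, 942 and 1045 in wild-type uteri. The groups overlapped, and the log2 difference was -0.20 with an interval of -0.48 to 0.08. Kif23, a kinesin of the central spindle, had the largest rise in value of the 33 genes, with 791, 560, 594 and 826 in Cox-1 KO against 744, 571, 490 and 606 in wild-type uteri. Its log2 difference of 0.20 had an interval of -0.17 to 0.56, and its other probe set gave -0.08. The microtubule bundlers Prc1 and Nusap1 differed by -0.28 and -0.21, the kinesins Kif11, Kif20a and Cenpe by -0.25, -0.17 and -0.07, and the spindle assembly factor Tpx2 by 0.07. Tpx2 probe sets disagreed in sign, from -0.54 to 0.19.

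Mki67, whose protein coats mitotic chromosomes and is the usual histological mark of cycling cells, had 1119, 1192, 914 and 1565 in Cox-1 KO uteri, against 1439, 1299, 1168 and 1306 in wild-type uteri. Top2a, the topoisomerase that untangles chromosomes before anaphase, had 1063, 827, 836 and 1389 in Cox-1 KO and 1358, 1006, 990 and 1137 in wild-type uteri. For both genes the 2 highest arrays were Cox-1 KO replicate 4 and wild-type replicate 1. Their log2 differences were -0.14 and -0.15, with intervals that included 0. Over all 33 genes, 19 had more than 1 kept probe set, and for 12 of these every probe set lay on one side of 0. The exceptions were Aurkb, Cdca8, Kif23, Mcm7, Rrm2, Top2a and Tpx2.

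Much of the variation of these genes was between single arrays of 1 genotype. Cox-1 KO replicate 4 was the highest of the 4 Cox-1 KO arrays for 28 of the 33 genes (84.8%), where it was the highest for 23.3% of all genes. Wild-type replicate 1 was the highest wild-type array for 23 (69.7%), where it was so for 30.5% of all genes. Of all 8 arrays, Cox-1 KO replicate 4 was the highest for 14 genes and wild-type replicate 1 for 13. The lowest array was Cox-1 KO replicate 2 for 11 genes, replicate 3 for 10 and replicate 1 for 6.

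Averaged as log2 signal relative to the mean of the 8 arrays, the 33 genes stood at -0.14, -0.20, -0.19 and 0.25 in Cox-1 KO uteri, against 0.23, -0.06, -0.01 and 0.10 in wild-type uteri. The Cox-1 KO replicates 1, 2 and 3 thus lay below all wild-type arrays, and replicate 4 above them. The SD of this level was 0.22 in Cox-1 KO and 0.13 in wild-type uteri (n = 4 each), beside means of -0.07 and 0.07. On the brightest probe sets, replicate 4 exceeded the mean signal of the other 3 Cox-1 KO arrays in 31 of the 33 genes, all but Mcm2 and Ccnd1. On another probe set of each of these genes it was the highest Cox-1 KO array, at 1075 for Mcm2 and 1389 for Ccnd1. The remaining Ccnd1 probe set had 3275 on replicate 4, in a Cox-1 KO range of 3228 to 4312. Over the 33 genes the median ratio of replicate 4 to the mean of the other 3 was 1.36. The ratio was 2.27 for Bub1, 1.69 for Ube2c, 1.68 for Birc5 and 1.52 for Cdc20. Over all genes the median log2 difference of that array from the other 3 was 0.00, against 0.46 for these genes.

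**Figure D3:**
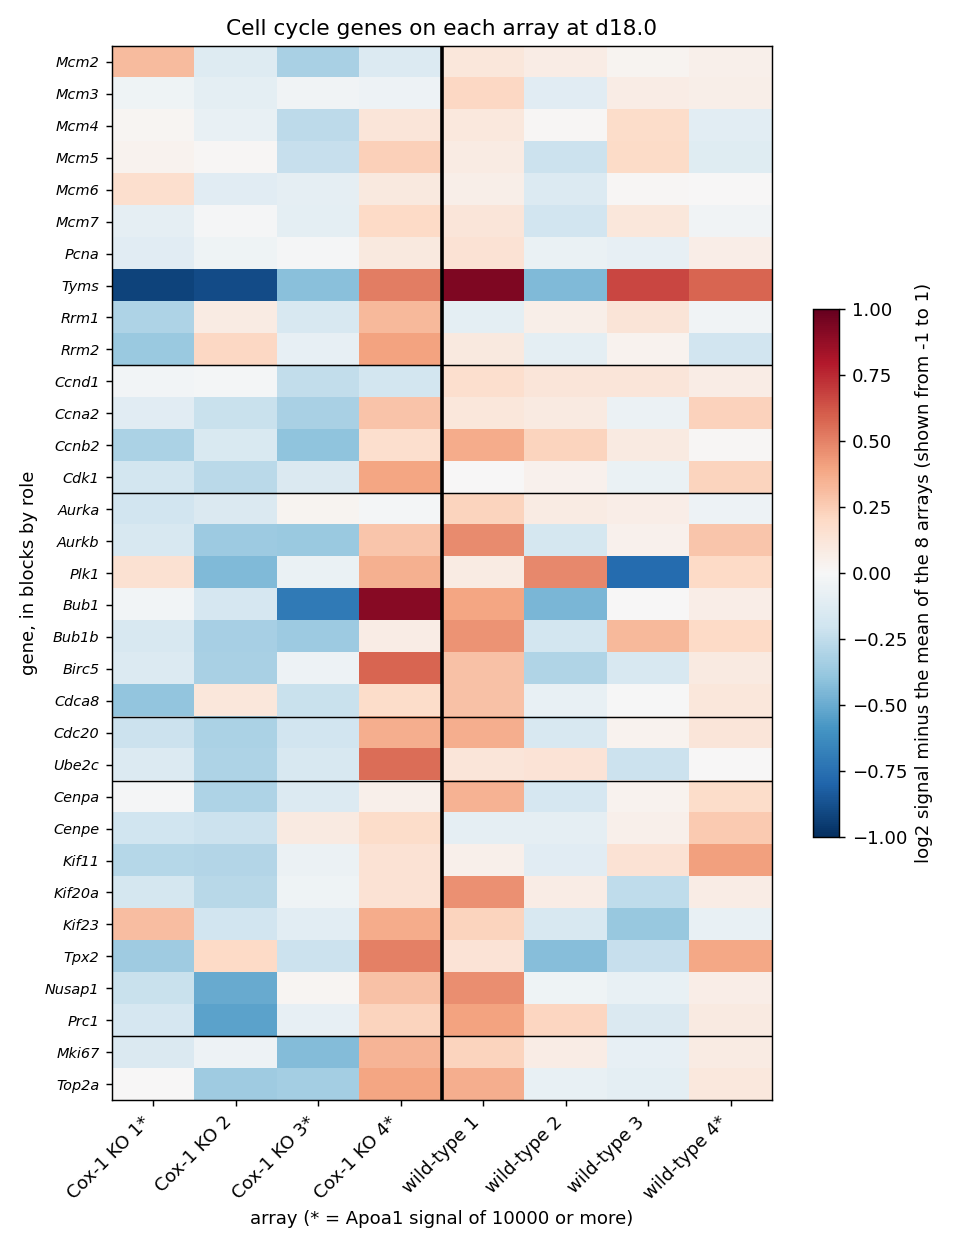
Log2 signal of each of the 33 genes (rows, in blocks by role) on each array (columns, Cox-1 KO left of the line, wild-type right) relative to the mean of the 8 arrays, red for higher and blue for lower. Cox-1 KO replicate 4 and wild-type replicate 1 are red in most rows. Ccnd1 is an exception, with its 4 Cox-1 KO arrays below its 4 wild-type arrays on its brightest probe set.

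The size of the group difference changed with Cox-1 KO replicate 4, which was singled out from these same values. It was the highest Cox-1 KO array for 28 of the 33 genes. Leaving it out therefore had to lower their Cox-1 KO mean. Leaving out wild-type replicate 1, the highest wild-type array for 23, had to lower their wild-type mean. All genes had no such built-in shift, so the counts below are no test against the background. Without Cox-1 KO replicate 4, 31 of the 33 genes lay below 0 (background 52.7%), the median was -0.22, and 10 genes were lower at an unadjusted p under 0.05 (background 3.75%). The 10, each on its brightest probe set, were Ccnd1, Ccna2, Ccnb2, Cdk1, Aurkb, Bub1b, Cdc20, Prc1, Mki67 and Tyms, and 0 passed the adjusted threshold, with a lowest adjusted p of 0.596 in limma. Without wild-type replicate 1, 22 genes lay below 0 (background 51.4%), the median was -0.09 and 1 gene, Ccnd1, was lower at an unadjusted p under 0.05 (background 3.7%). With both arrays left out, an alternative chosen after seeing the data, 30 genes lay below 0 (background 51.5%), the median was -0.18 and 4 genes, those of the cyclins and Cdk1, were lower at an unadjusted p under 0.05 (background 3.14%). Ccnd1 differed by -0.22, -0.23 and -0.20 in these fits.

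Other values moved with the same arrays. The Apoa1-high arrays include Cox-1 KO replicate 4 but not wild-type replicate 1. Of 22 erythroid markers listed, 8 were measured and 5 passed the filter. Their summed signal was 1314 to 3675 in Cox-1 KO and 1007 to 1866 in wild-type uteri, and Cox-1 KO replicate 4 had the top sum. Alas2, the first enzyme of heme synthesis in red cells, had 1240, 683, 1188 and 2546 in Cox-1 KO and 344, 555, 982 and 1125 in wild-type uteri. Its signal of 2546 was most of the top sum of 3675. Slc4a1, the red cell anion exchanger, stood at 478 on Cox-1 KO replicate 4 and at 107 to 168 on the other 7 arrays. Hbb-y, an embryonic globin left out by the filter, stood at 278 on that array and at 1 to 64 on the other 7. The adult globin Hba-a2 had 110, 95, 53 and 127 in Cox-1 KO and 88, 120, 110 and 101 in wild-type uteri, so that array was its highest by a small margin. Hbb-b2, the other adult globin measured, was highest on Cox-1 KO replicate 3, with 202, 222, 390 and 320 in Cox-1 KO and 301, 150, 236 and 352 in wild-type uteri. Epb42 and Kel, left out by the filter as Hbb-y was, were not highest on Cox-1 KO replicate 4. They stood at 45 and 72 there, against 57 on Cox-1 KO replicate 2 for Epb42 and 94 on wild-type replicate 4 for Kel. Wild-type replicate 1, also high in cell cycle genes, had the lowest level of the erythroid list and of the trophoblast list, with mean log2 levels of -0.36 and -0.64. This was not particular to those lists. It was also lowest for markers of uterine epithelium (-0.46), leukocytes and macrophages (-0.33), decidua (-0.15) and yolk sac and fetal liver (-3.10). For trophoblast markers Cox-1 KO replicate 4, at -0.23, was the lowest Cox-1 KO array.

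Of 16 markers of uterine natural killer cells, the granzyme-rich lymphocytes of the pregnant uterus, 13 were measured and passed the filter. Their summed signal was 126419 to 188590 in Cox-1 KO and 106208 to 134463 in wild-type uteri. The brightest genes, Gzmd and Gzmg, weigh most in this sum, at 53461 and 47246 on Cox-1 KO replicate 4. The log2 difference, Cox-1 KO minus wild-type, was above 0 for 10 of the 13 and below 0 for 3. Those below 0 were Nkg7, Klrk1 and Itga2, at -0.13, -0.16 and -0.07. Cox-1 KO replicate 4 was the highest Cox-1 KO array for 12 of the 13. Gzme had 16617, 25125, 21813 and 27195 in Cox-1 KO and 17069, 14794, 15342 and 13526 in wild-type uteri. The mean log2 levels of the list were -0.16, 0.21, 0.17 and 0.45 in Cox-1 KO and 0.05, -0.10, -0.02 and -0.60 in wild-type uteri. Cox-1 KO replicates 2 and 3 were thus high in natural killer markers and low in cell cycle genes. The part of these cell types in the levels of the cell cycle genes was not tested.

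**Figure D4:**
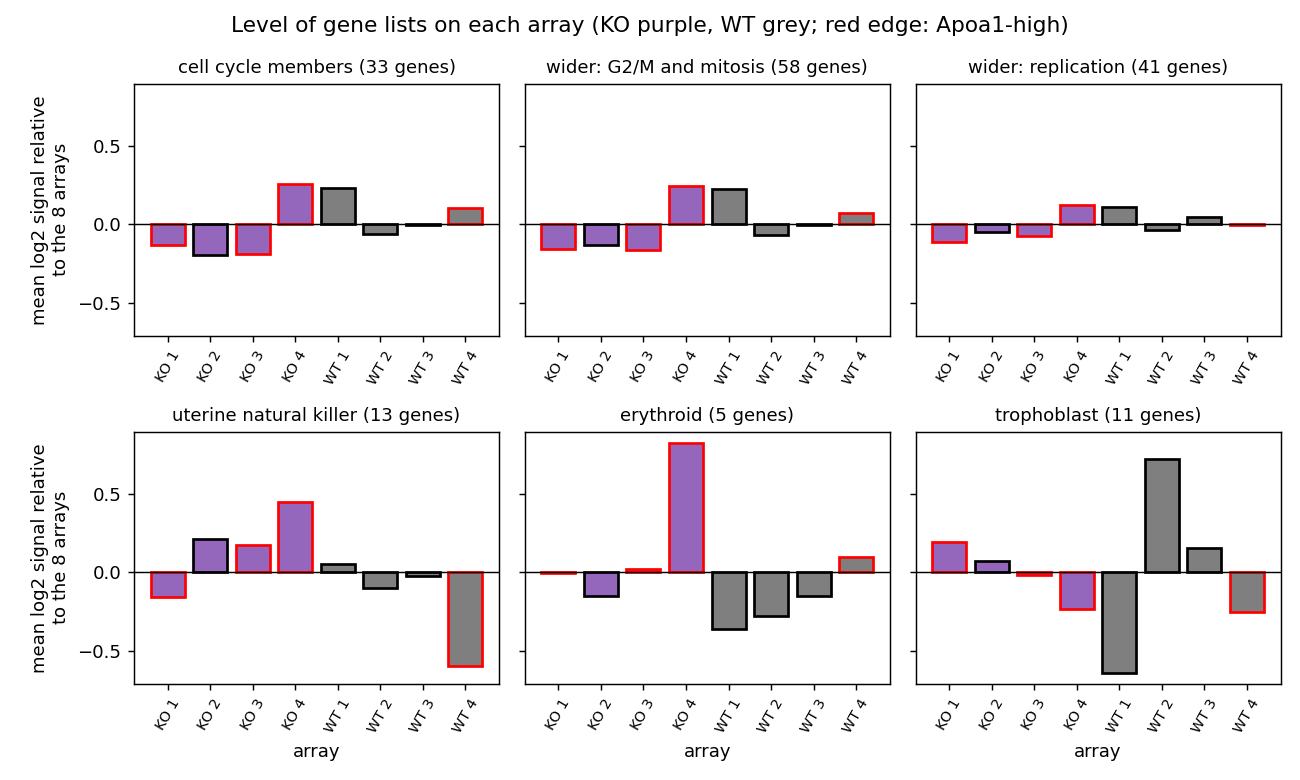
Mean log2 signal of gene lists relative to the mean of the 8 arrays (y axis) on each array (x axis, Cox-1 KO purple and wild-type grey, red edges for Apoa1-high arrays). Cox-1 KO replicate 4 is at 0.25 for the 33 cell cycle genes, 0.45 for natural killer and 0.82 for erythroid markers, and wild-type replicate 1 is at 0.23 for the cell cycle genes and -0.36 for erythroid markers.

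A wider list of 166 cell cycle symbols, which shares no gene with the 34, gave 143 measured genes, of which 142 passed the filter. At an adjusted p under 0.05 in limma 0 differed, with a lowest adjusted p of 0.489, and at an unadjusted p under 0.05 7 genes were lower, against 4.37% of all genes, and 2 were higher, against 4.84%. Of the 142, 97 lay below 0, where 52.7% of all genes did, with a median of -0.05. The 58 genes of G2/M and mitosis had 44 below 0 and a median of -0.09, and the 41 genes of origin licensing and the replication fork had 26 below 0 and a median of -0.03. The 21 regulators of G1/S had 13 below 0 and the 22 Cdk inhibitors and growth arrest genes had 14 below 0.

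The array pattern recurred in the genes of mitosis in this list. Cox-1 KO replicate 4 was the highest Cox-1 KO array for 42 of the 58 G2/M genes, and wild-type replicate 1 the highest wild-type array for 32. Their mean log2 levels were -0.16, -0.14, -0.17 and 0.25 in Cox-1 KO and 0.22, -0.07, -0.01 and 0.07 in wild-type uteri. Without Cox-1 KO replicate 4, 14 of the 58 were lower at an unadjusted p under 0.05 and 1 was higher (background 3.75% lower and 3.79% higher). As that array was the highest Cox-1 KO array for 42 of the 58, a shift downward was built into this fit. For Cdk inhibitors and growth arrest genes the range was small, at -0.06 to 0.08 in Cox-1 KO and -0.09 to 0.05 in wild-type uteri.

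The 8 genes of the wider list with the smallest p all had an adjusted p of 0.489 or more in limma. Pole, the catalytic subunit of the leading strand polymerase, had 311, 366, 346 and 490 in Cox-1 KO uteri, against 1197, 586, 554 and 495 in wild-type uteri. The groups did not overlap, although Cox-1 KO replicate 4 and wild-type replicate 4 lay next to each other, and the log2 difference was -0.83. Anln, which encodes the cytokinetic ring protein anillin, averaged 3089 ± 362 in Cox-1 KO and 3681 ± 172 in wild-type uteri (SD, n = 4 each), a log2 difference of -0.26 with groups that did not overlap. Rfc2, a clamp loader subunit, and Orc5, a subunit of the origin recognition complex, also did not overlap, with log2 differences of -0.23 and -0.20. Of all genes, 2.5% did not overlap in the lower direction. Genes picked for a small p tend to have separate groups, so these separations are no test against that share. Ckap2, a spindle protein, differed by -0.44, with overlapping groups.

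The growth arrest genes Gas1 and Ccng1 differed by -0.41 and -0.18 with overlapping groups, and by -0.22 and -0.12 with Apoa1-high as a term. Cdkn1c, which encodes the Cdk inhibitor p57, went the other way, with 14198, 2843, 9369 and 7246 in Cox-1 KO and 1576, 2825, 2457 and 6072 in wild-type uteri. Its 4 highest arrays were the 4 Apoa1-high arrays, and the log2 difference of 1.34 (limma, unadjusted p = 0.0162, adjusted p = 0.526) became 0.53 with Apoa1-high as a term.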

How the data were processed

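RNA of whole gravid d18.0 uteri was measured on 8 one-colour arrays, 4 of Cox-1 KO and 4 of wild-type mice, grouped by their titles. The deposited values are MAS5 signal intensities on a linear scale, which the authors scaled to 1000 per array. MAS5 subtracts mismatch probes, so low signals are noisy, and the number of arrays limits the precision. Signals were set to at least 1 and taken as log2, with no further normalization, in limma 3.58.1 (R 4.3.3) with a trended variance. A probe set was kept where 4 or more arrays reached a signal of 100 (26444 were), and 12662 genes were read from their brightest kept probe set. P-values were adjusted by the Benjamini-Hochberg method over all probe sets kept. Exact permutation tests ran over 70 assignments. Each array came from 1 mouse.

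All 33 measured genes are named. Values on every array are given for genes with an unadjusted p under 0.05 or separate groups, the brightest gene of each role, the largest rise and fall and the widest spread, and of the wider list the 8 with the smallest p are named. Ccna2, Cdk1, Pcna, Mcm2, Cdc20, Top2a and the marker genes were added for their roles after their values were seen. The genes and lists were chosen with earlier results of these data known. The methods' t-test (unequal variances, with a ratio of 1.5) was run as an alternative, beside other offsets, filters, normalizations, variance models, Apoa1 terms and subsets of arrays. The targeted gene was not analysed here. RefSeq promoters (GRCm38.p6) were searched for exact letters. The fit was tested on simulated data.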

Additional observations from a re-analysis of the deposited data

How the results depend on the processing

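The count of cell cycle genes past an adjusted p of 0.05 was 0 in all settings run, as was that of the wider list. The number of the 33 genes below 0 was 25 and ran from 22 to 31 without single arrays and from 23 to 30 in the other settings, and the median log2 difference of -0.14 ran from -0.22 to -0.07 and from -0.26 to -0.10. The count lower at an unadjusted p under 0.05 was 3 (background 4.37%), and 4 with quantile normalization, for which no background share was taken. It was 1 with log2 Apoa1 as a covariate (background 2.35%), 0 over the Apoa1-high arrays alone (3 Cox-1 KO against 1 wild-type, the lone array being assumed to vary like the others, background 1.63%) and 1, Ccnd1, in the methods' t-test (background 3.48%). Without single arrays it ran from 1 to 10, the 10 without Cox-1 KO replicate 4 and the 1 without Cox-1 KO replicate 3 or without wild-type replicate 1. The count of genes higher was 0 throughout. Of the 33 genes, 15 changed sign in at least 1 setting and 18 in none. As 0 genes passed the adjusted threshold in any setting, there was no call that could reverse. The cause of these shifts was not tested. Deviations of same-numbered arrays from their group correlated at -0.25, 0.22, -0.18 and 0.17 over all probe sets kept. These values cannot show whether the numbers pair the mice. The paper states that samples were processed side by side in balanced groups, but the labels do not name these groups. With the replicate number as a block 25 genes lay below 0 and the median was -0.14. In that fit 3 genes were lower at an unadjusted p under 0.05, and 0 passed the adjusted threshold. The share of all genes was not taken for that fit. Signals near 100, as for Tyms, and 4 arrays per genotype limit what could be detected.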
